A study of Mus musculus with 16 samples.

Results

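The values of 38 genes of glycolysis and the hypoxia response were examined in mouse embryonic fibroblasts (MEFs), out of 54453 genes in the expression table. They are a list of symbols, matched by name to the annotation, and all 38 were found and passed the filter on low values. The list holds 17 genes of glucose transport and glycolysis, 6 of lactate, pyruvate entry and control of fructose-2,6-bisphosphate, 4 of the hypoxia-inducible factors (HIFs) and prolyl hydroxylases, and 11 hypoxia-response targets. Total RNA was sequenced from 16 lines. MEF-1 and MEF-2 were derived from sibling C57BL/6J embryos at E13.5, the first male and the second female, and immortalised by serial passage, and each gave 1 parental line and 7 clonal lines grown out from 1 sorted cell each. No line was treated: all grew in the same high-glucose medium, and the labels give no low-oxygen condition. Each set comes from 1 embryo, so embryo, sex and karyotype cannot be told apart between MEF-1 and MEF-2, and p-values measure only the spread among clones of 1 embryo. Values are regularised log (rlog) values on a log2 scale, in which 1 unit is a doubling and which are shrunken towards the gene's mean, so that differences of low genes are understated.

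Glycolysis turns glucose into pyruvate in the cytoplasm and yields ATP without oxygen. Pyruvate is then reduced to lactate, or enters the mitochondria through pyruvate dehydrogenase, which the pyruvate dehydrogenase kinases switch off. In oxygen the prolyl hydroxylases mark the HIF alpha subunits for destruction, and in low oxygen HIF accumulates and binds the core ACGTG or GCGTG near genes of glucose uptake, glycolysis, angiogenesis and collagen hydroxylation. Proliferating cells in culture commonly turn glucose into lactate even in oxygen, and fibroblasts also use prolyl hydroxylases of another family to modify collagen.

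The bases upstream of the start are shown for 4 members, chosen after their values were seen: Pdk1 and P4ha1, which were lower in the MEF-2 clones, and Pfkp and Ldha, which were higher. Capitals mark the letters ACGTG or GCGTG on either strand, so that CACGT and CACGC are their reverse complements. Of the 4 stretches shown, that of Ldha alone carries the palindrome CACGTG, which holds ACGTG on both strands. The stretches come from RefSeq promoter windows on GRCm38.p6, the build of mm10. Ldha and Pdk1 have 2 windows each, of which 1 is shown. CACGTG was in 1 of the 2 Ldha windows, and either core was in 1 of the 2 Pdk1 windows. Pdk1 is at chr2:71873074-71873223 (+), P4ha1 at chr10:59323146-59323295 (+), Pfkp at chr13:6648778-6648921 (-) and Ldha at chr7:46845654-46845803 (+).
Pdk1: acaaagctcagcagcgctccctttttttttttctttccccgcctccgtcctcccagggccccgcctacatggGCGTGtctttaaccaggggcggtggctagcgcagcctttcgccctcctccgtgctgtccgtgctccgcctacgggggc
P4ha1: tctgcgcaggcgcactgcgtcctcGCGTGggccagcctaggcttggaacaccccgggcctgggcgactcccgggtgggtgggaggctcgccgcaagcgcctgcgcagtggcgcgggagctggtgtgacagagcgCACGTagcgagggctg
Pfkp: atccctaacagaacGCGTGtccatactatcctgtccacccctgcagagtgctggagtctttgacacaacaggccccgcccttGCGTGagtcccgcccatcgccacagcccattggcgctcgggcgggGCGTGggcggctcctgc
Ldha: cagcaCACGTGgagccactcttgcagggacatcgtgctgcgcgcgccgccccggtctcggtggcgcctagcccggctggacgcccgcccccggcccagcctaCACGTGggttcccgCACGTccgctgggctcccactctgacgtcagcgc

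All 4 stretches shown, of both directions, held the core. Over whole windows of 250 bases before and 50 after the start, 31 of the 34 members with a window (91.2%) held ACGTG or GCGTG on either strand, against 46.7% of 27025 genes and 64.7% of the 11715 genes tested that have a window. ACGTG alone was in 25 members (73.5%), against 21.8% of all genes and 27.7% of those tested, and CACGTG was in 5 members (14.7%), against 8.09% and 11.2%. The windows of Gpi1, Tpi1 and Eno2 held neither core. Slc2a3, Epas1, Bnip3l and Ndrg1 had no window. Since the list was chosen from genes known for HIF control, these shares describe the list, and a match of letters is not a binding site.

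The lines were fibroblasts by their markers: Col1a1 was at 20.31 to 21.41 and Vim at 17.79 to 18.46 over the 16 lines, whereas Thy1 ranged from 2.72 to 10.22. Of the markers of other cell types, the highest of each list reached 8.41 (epithelial, Cdh1), 6.57 (endothelial, Tek), 8.33 (haematopoietic, Csf1r) and 6.52 (skeletal muscle, Tnnt3). The defining markers Krt8, Cdh5, Ptprc and Myod1 did not exceed 2.94, while Epcam reached 4.45, Kdr 4.43, Cd68 5.58 and Des 4.29. The median gene on chromosome 12 was 0.59 higher and on chromosome 19 0.36 lower in MEF-2 than in MEF-1 clones, which touches Hif1a and Egln3 on the first and Pgam1 and Mxi1 on the second. From read coverage the paper counts both among the chromosomes that were aneuploid in its lines. The part of copy number in these shifts was not tested. MEF-2 clones 3 and 7 stood apart over all genes: clone 3 was the highest of its set for 26.4% and the lowest for 23.0% of genes, and clone 7 for 24.6% and 19.9%.

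Of the 38 genes, 22 differed between the clonal lines of MEF-2 and MEF-1 at an adjusted p below the threshold in limma, 10 higher and 12 lower in MEF-2. That share (57.9%) was near that of all 15285 protein-coding genes tested, of which 56.1% were called, 27.5% higher and 28.6% lower, so the number called is not particular to the list. The median difference, MEF-2 minus MEF-1, was 0.07 over the members and -0.00432 over all genes tested. By role, 7 of 17 transport and glycolysis genes were higher and 4 lower, and of the 11 hypoxia-response targets none was higher and 4 were lower, or 1 higher and 3 lower after quantile normalisation. The roles were not tested against each other. The 7 clones of the sets did not overlap for 3 higher members (Gpi1, Pfkp and Eno1), against 12.3% of all genes, and for 5 lower members (Pfkm, Pdk1, Egln1, P4ha1 and Mxi1), against 13.6%.

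**Figure D1:**
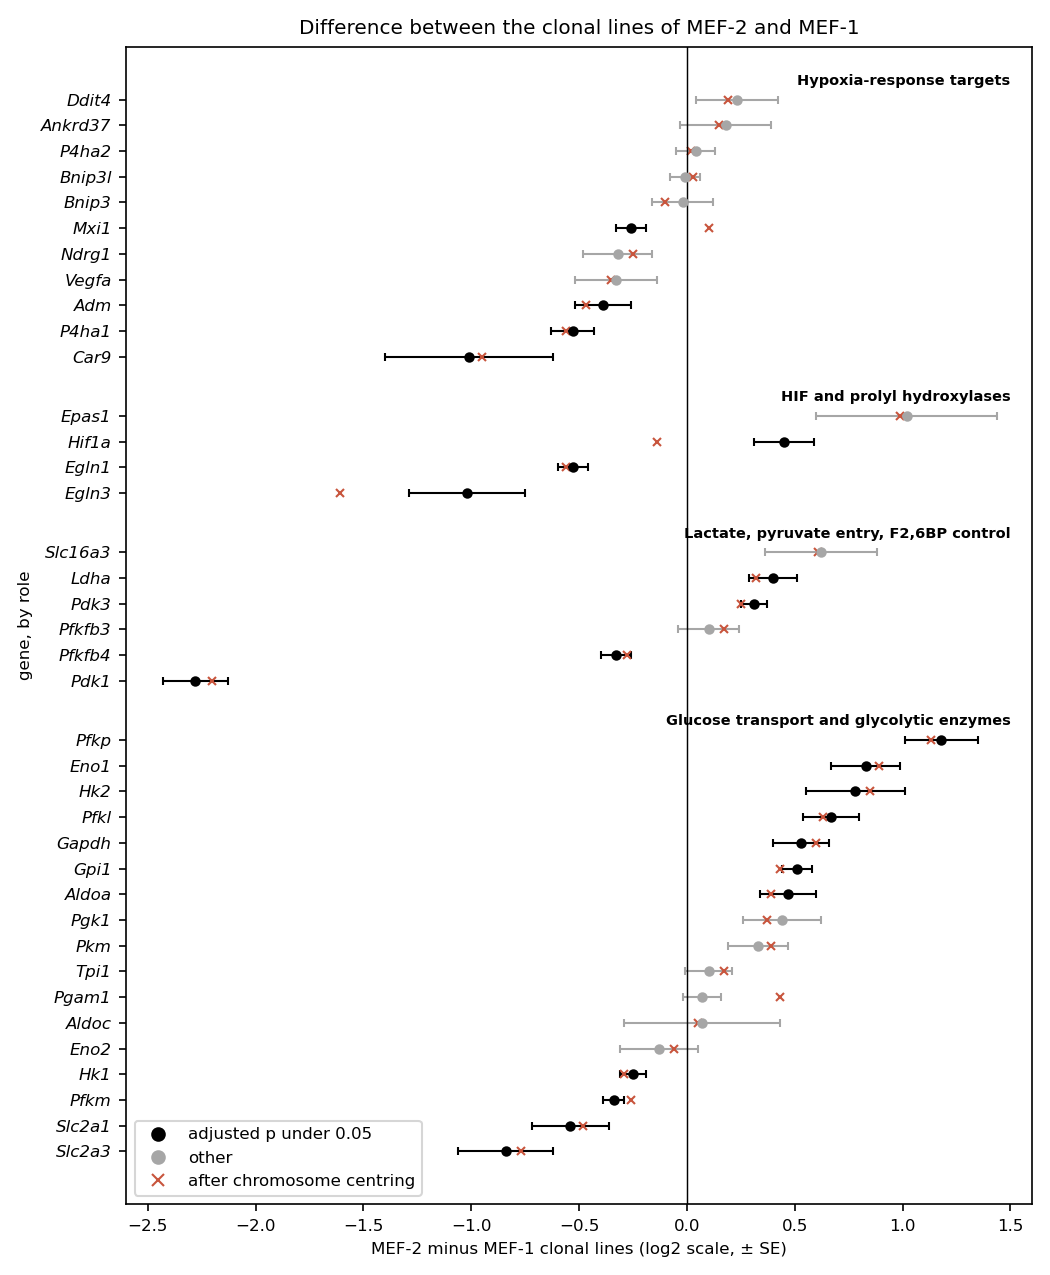
Difference of the 38 genes by role, as MEF-2 minus MEF-1 over the clones, on the log2 scale with its standard error (black: adjusted p under 0.05 in limma, grey: other); crosses show the difference after each line was centred on its chromosome medians. Pdk1 lies farthest to the left at -2.28 and Pfkp farthest to the right at 1.18, while Hif1a and Mxi1 change sign with chromosome centring.

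Glucose enters through facilitative transporters, and of this family both listed members, Slc2a1 and Slc2a3, were lower in the MEF-2 clones, whereas Slc2a4, outside the list, was higher by 2.54 (adjusted p = 1.38e-06). Slc2a1, which encodes the ubiquitous transporter GLUT1, was at 12.36, 13.08 and 13.65 (lowest, median and highest clone) in MEF-1 and at 12.18, 12.39 and 13.0 in MEF-2. The sets overlapped through MEF-1 clones 2 and 7, and the difference was -0.54 ± 0.18 (SE, adjusted p = 0.0178). Slc2a3, which encodes the high-affinity transporter GLUT3, was at 7.1, 7.79 and 7.99 in MEF-1 and at 6.05, 7.01 and 7.5 in MEF-2, a difference of -0.84 ± 0.22 (adjusted p = 0.00521). MEF-2 clone 7, the highest line of its set for Slc2a1, was the lowest for Slc2a3.

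Hexokinases trap glucose in the cell by phosphorylation, and the pair went in opposite directions. Hk1, the widely expressed form, was at 12.5, 12.7 and 12.82 in MEF-1 and at 12.2, 12.47 and 12.6 in MEF-2 (difference -0.25 ± 0.06, adjusted p = 0.00405). Hk2, the inducible form, was at 11.18, 12.51 and 12.95 in MEF-1 and at 12.36, 13.15 and 13.48 in MEF-2 (0.78 ± 0.23, adjusted p = 0.0106). MEF-1 clone 2 was far below the other MEF-1 clones for Hk2 and MEF-2 clone 3 below the other MEF-2 clones. Without MEF-2 clones 2 and 7 the Hk2 difference was 0.64 (adjusted p = 0.0524). Gpi1, the isomerase of the next step, was at 13.53, 13.84 and 13.96 in MEF-1 and at 14.14, 14.26 and 14.47 in MEF-2, with no overlap (0.51 ± 0.07, adjusted p = 4.03e-05).

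Phosphofructokinase, the committed step, is built from liver, muscle and platelet subunits. Pfkl, the liver form, was at 12.19, 12.38 and 12.89 in MEF-1 and at 12.79, 13.04 and 13.47 in MEF-2 (0.67 ± 0.13, adjusted p = 0.000423). Pfkp, the platelet form, was at 10.14, 10.48 and 10.81 in MEF-1 and at 10.94, 11.55 and 12.29 in MEF-2, the largest positive difference in the list (1.18 ± 0.17, adjusted p = 4.91e-05, 2.26-fold on shrunken values). Pfkm, the muscle form, went the other way, at 12.17, 12.33 and 12.46 in MEF-1 and at 11.9, 11.99 and 12.14 in MEF-2 (-0.34 ± 0.05, adjusted p = 4.82e-05). The subunits did not change together: the liver form was higher with overlap between the sets, the platelet form higher without overlap and the muscle form lower without overlap. Pfkm overlaps Senp1 and Pfkp overlaps Pitrm1 on the opposite strand, and the libraries were directional.

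In the later steps of the pathway 3 abundant enzymes were higher in MEF-2. Aldoa, the main aldolase, was at 14.57, 14.66 and 14.83 in MEF-1 and at 14.78, 14.97 and 15.71 in MEF-2 (0.47 ± 0.13, adjusted p = 0.00782). Gapdh, which makes NADH, was at 15.7, 15.82 and 16.14 in MEF-1 and at 15.95, 16.38 and 16.88 in MEF-2 (0.53 ± 0.13, adjusted p = 0.00324). Eno1, the ubiquitous enolase, was at 15.37, 15.75 and 15.95 in MEF-1 and at 16.1, 16.35 and 17.08 in MEF-2 (0.83 ± 0.16, adjusted p = 0.000396). The Eno1 values of the sets did not overlap, and for all 3 genes MEF-2 clone 3 was the lowest of its set.

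Pgk1, the first ATP-forming enzyme, was at 13.85, 14.26 and 14.38 in MEF-1 and at 14.07, 14.4 and 15.32 in MEF-2, and its difference of 0.44 ± 0.18 missed the threshold (adjusted p = 0.0522). Pkm, the last enzyme, was at 15.69, 15.99 and 16.13 against 15.85, 16.17 and 16.74 (0.33 ± 0.14, adjusted p = 0.0523). Both sat just above the threshold. Pgk1 passed without MEF-2 clone 3 (0.52, adjusted p = 0.0199), MEF-2 clone 6 (0.5, adjusted p = 0.0328) or MEF-1 clone 7 (0.47, adjusted p = 0.0499). Pkm passed without the same lines (0.4, 0.39 and 0.37, adjusted p = 0.022, 0.0267 and 0.0425) and after chromosome centring (0.39, adjusted p = 0.027). Tpi1, the triose isomerase, differed by 0.1 (adjusted p = 0.45). Pgam1, the mutase, differed by 0.07 ± 0.09 (adjusted p = 0.554), but by 0.43 (adjusted p = 0.000664) after each line was centred on its chromosome medians, Pgam1 being on chromosome 19. These enzymes have many processed pseudogenes, so reads may be shared with near-identical copies.

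The forms known from brain did not pass the test. Aldoc was at 3.82, 4.21 and 5.77 in MEF-1 and at 3.9, 4.62 and 5.57 in MEF-2 (0.07 ± 0.36, adjusted p = 0.889). It was among the lowest genes of the list, with a spread of 0.79 and 0.64 (SD) among clones. Eno2, the neuronal enolase, was at 8.98, 9.75 and 10.18 and at 9.09, 9.39 and 9.8 (-0.13 ± 0.18, adjusted p = 0.544).

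The strongest difference of the list was in the control of pyruvate entry. Pdk1, a kinase that switches off pyruvate dehydrogenase, was at 11.05, 11.67 and 11.89 in the MEF-1 clones and at 8.96, 9.34 and 9.72 in the MEF-2 clones. Every MEF-1 clone was above every MEF-2 clone by more than 1 unit, and the difference was -2.28 ± 0.15 (adjusted p = 1.48e-08, 4.85-fold lower on shrunken values). Chromosome centring left it at -2.2. Pdk3, a related kinase, went the other way, at 11.92, 12.13 and 12.35 in MEF-1 and at 12.33, 12.43 and 12.61 in MEF-2 (0.31 ± 0.06, adjusted p = 0.000775). Pdk3 and Pgk1 are on the X chromosome, and MEF-1 is male and MEF-2 female. After chromosome centring Pdk3 was at 0.25 (adjusted p = 0.00213) and Pgk1 at 0.37 (adjusted p = 0.0915).

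Of the lactate genes, Ldha was higher in MEF-2 and Slc16a3 did not pass the test. Ldha, the muscle-type lactate dehydrogenase subunit whose promoter stretch with CACGTG is given above, was at 14.37, 14.53 and 14.95 in MEF-1 and at 14.58, 14.93 and 15.39 in MEF-2 (0.4 ± 0.11, adjusted p = 0.00684). Slc16a3, the lactate exporter MCT4, was at 8.9, 9.01 and 9.82 in MEF-1 and at 8.81, 9.66 and 10.83 in MEF-2, where the clones spanned 2.02 units, and its difference of 0.62 ± 0.26 just missed the threshold (adjusted p = 0.0501). It passed without MEF-1 clone 3 (0.74, adjusted p = 0.0251), without MEF-2 clone 1 (0.78, adjusted p = 0.0105) and without MEF-2 clone 3 (0.71, adjusted p = 0.0348). Of the enzymes that set fructose-2,6-bisphosphate, an activator of phosphofructokinase, Pfkfb3 was at 10.7, 11.39 and 11.77 and at 11.09, 11.51 and 11.59 (0.1 ± 0.14, adjusted p = 0.567). Pfkfb4 was at 8.96, 9.14 and 9.21 in MEF-1 and at 8.66, 8.74 and 9.01 in MEF-2 (-0.33 ± 0.07, adjusted p = 0.00156).

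**Figure D2:**
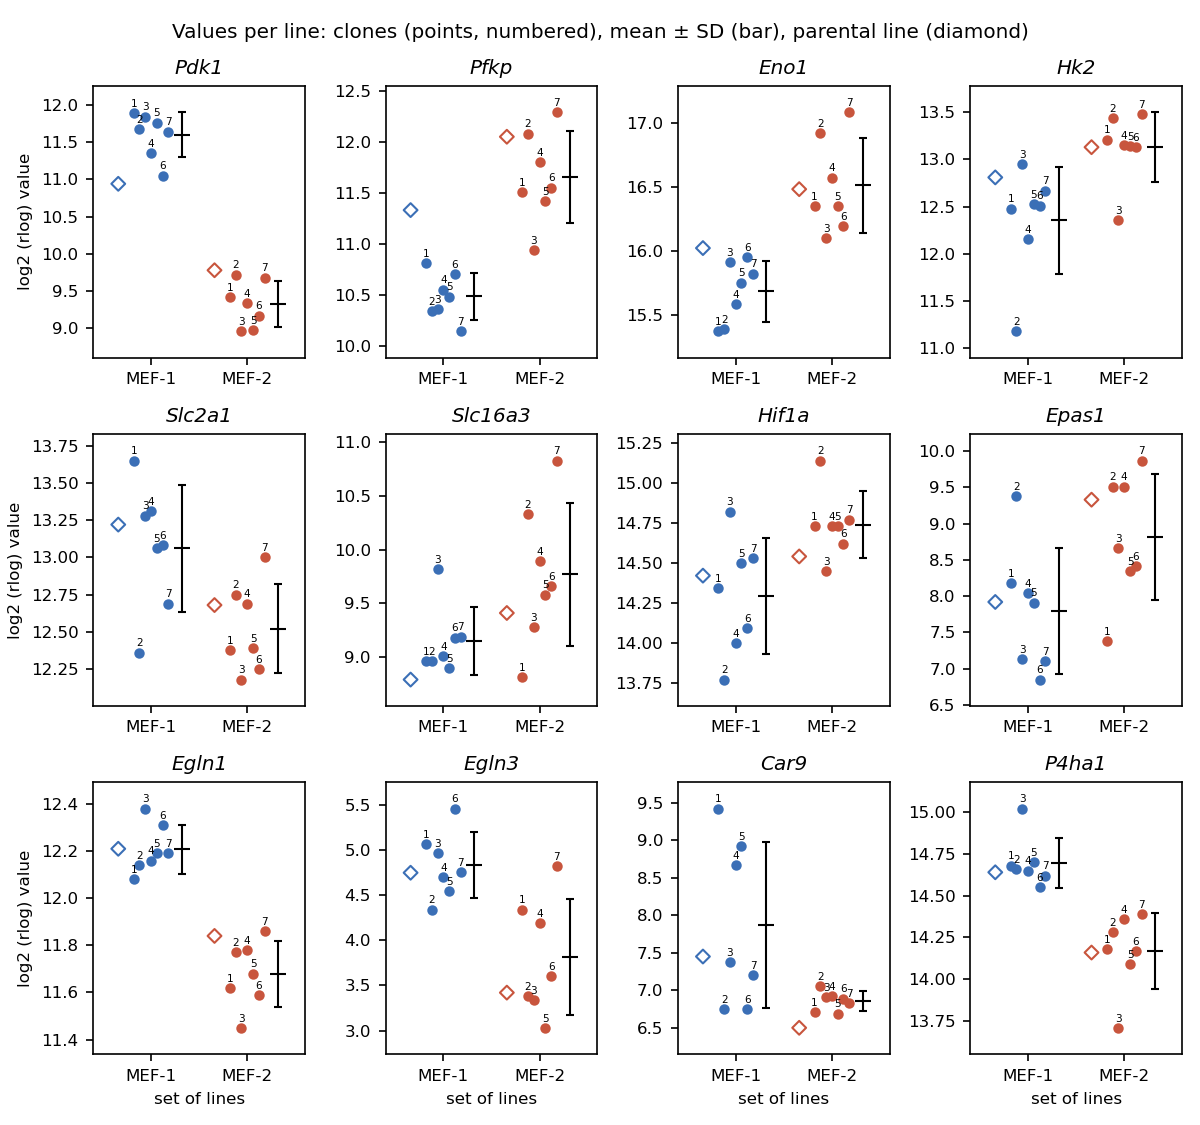
rlog values (log2) of 12 genes in each line, MEF-1 in blue and MEF-2 in red, with clones as numbered points, the parental line as a diamond and the mean ± SD of the 7 clones as a bar; each panel has its own vertical axis, which does not start at 0. Pdk1 separates the sets by more than 1 unit, Car9 is high in MEF-1 clones 1, 4 and 5 alone, and Hk2 is lowest in MEF-1 clone 2.

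Of the HIF subunits, Hif1a was called higher in MEF-2 and Epas1 did not pass the test. Hif1a, the broadly expressed oxygen-regulated subunit, was at 13.77, 14.34 and 14.82 in MEF-1 and at 14.45, 14.73 and 15.14 in MEF-2 (0.45 ± 0.14, adjusted p = 0.0165). Hif1a lies on chromosome 12, and after chromosome centring the difference was -0.14 (adjusted p = 0.405), so its call did not hold relative to its chromosome. Epas1, the HIF-2 alpha subunit, varied widely among clones, at 6.85, 7.91 and 9.38 in MEF-1 and at 7.38, 8.66 and 9.87 in MEF-2. MEF-1 clone 2 was the highest of its set and MEF-2 clone 1 the lowest of its own, and the difference of 1.02 ± 0.42 did not pass (adjusted p = 0.0537). Without MEF-1 clone 2 it was 1.28 (adjusted p = 0.0112) and without MEF-2 clone 1 it was 1.26 (adjusted p = 0.0156).

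Both listed prolyl hydroxylases, Egln1 and Egln3, were lower in MEF-2, whereas the third of the family, Egln2, was higher by 0.19 ± 0.04 (adjusted p = 0.000766), without overlap, and by 0.11 (adjusted p = 0.0108) after chromosome centring. Egln1, the main oxygen sensor PHD2, was at 12.08, 12.19 and 12.38 in MEF-1 and at 11.45, 11.68 and 11.86 in MEF-2, with no overlap (-0.53 ± 0.07, adjusted p = 8.47e-06). Egln3, the hypoxia-inducible PHD3, was at 4.34, 4.76 and 5.46 in MEF-1 and at 3.03, 3.6 and 4.82 in MEF-2 (-1.02 ± 0.27, adjusted p = 0.00441). It also lies on chromosome 12, and chromosome centring took the difference to -1.61, while quantile normalisation took it to -0.6 (adjusted p = 0.0814). Egln3 had the lowest level of the 38 genes per length.

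Among the hypoxia-response targets the 4 calls were all lower in MEF-2, and that of Car9 was lost when any 1 of several lines was left out. P4ha1, a collagen prolyl hydroxylase subunit, was at 14.55, 14.66 and 15.02 in MEF-1 and at 13.71, 14.18 and 14.39 in MEF-2, with no overlap (-0.53 ± 0.1, adjusted p = 0.000363). Its paralogue P4ha2 was at 13.36, 13.8 and 13.95 and at 13.44, 13.74 and 13.95 (0.04 ± 0.09, adjusted p = 0.76), so only the first of the pair passed the test. Adm, the vasodilator peptide adrenomedullin, was lower by -0.39 ± 0.13 (adjusted p = 0.0168). Mxi1, a MYC antagonist on chromosome 19, was at 11.51, 11.57 and 11.98 in MEF-1 and at 11.28, 11.35 and 11.43 in MEF-2 (-0.26 ± 0.07, adjusted p = 0.00435), and at 0.1 (adjusted p = 0.194) after chromosome centring.

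Car9, a membrane carbonic anhydrase often used as a hypoxia marker, was at 6.75, 7.38 and 9.42 in MEF-1 and at 6.69, 6.89 and 7.06 in MEF-2. MEF-1 clones 1, 4 and 5 (9.42, 8.67 and 8.92) were far above every other line, and the other 4 MEF-1 clones lay between 6.75 and 7.38. The difference was -1.01 ± 0.39 (adjusted p = 0.037), and it failed the threshold without MEF-1 clone 1 (-0.75, adjusted p = 0.0709), clone 4 (-0.88, adjusted p = 0.0761) or clone 5 (-0.84, adjusted p = 0.0769). It also failed without MEF-2 clone 1, 3, 4, 5, 6 or 7, each left out alone, at an adjusted p of 0.0504 to 0.0606. The call was thus near the threshold in general. Car9 overlaps the antisense gene Gm12454, whose average over the 16 lines was 6.51.

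The other 7 targets were not called. Vegfa, the angiogenic ligand, was at 12.09, 12.55 and 12.81 in MEF-1 and at 11.53, 12.33 and 12.93 in MEF-2 (-0.33 ± 0.19, adjusted p = 0.144), and it passed without MEF-2 clone 7 (-0.45, adjusted p = 0.0271). Ddit4, an mTOR inhibitor, was at 10.41, 10.59 and 10.91 and at 10.2, 10.67 and 11.66 (0.23 ± 0.19, adjusted p = 0.318). Ankrd37 was at 4.38, 4.78 and 5.71 and at 4.82, 5.05 and 5.54 (0.18 ± 0.21, adjusted p = 0.481), and it passed after quantile normalisation (0.64, adjusted p = 0.0232). The mitophagy receptors Bnip3 (11.29, 11.4 and 11.57 against 11.04, 11.23 and 11.96) and Bnip3l (13.2, 13.31 and 13.53 against a lowest of 13.17 and a median of 13.35) differed by -0.02 (adjusted p = 0.926) and -0.01 (adjusted p = 0.908). Ndrg1 differed by -0.32 ± 0.16 (adjusted p = 0.0971).

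Levels of different genes were compared per kilobase of merged exons. Gapdh, Pkm, Eno1, Pgam1, Aldoa, Pgk1 and Ldha stood highest, at mean levels of 14.12 to 13.1 on the log2 scale per kilobase, and Aldoc (2.95) and Egln3 (2.88) lowest. Slc2a1 exceeded Slc2a3 by a median of 6.37 in MEF-1 and 6.72 in MEF-2 clones, Aldoa exceeded Aldoc by 10.79 and 10.52, and Eno1 exceeded Eno2 by 5.79 and 6.85. Hif1a exceeded Epas1 by 6.52 and 5.71 and Egln1 exceeded Egln3 by 6.99 and 7.55. Pdk1 was below Pdk3 in all lines, by a median of -2.09 in MEF-1 and -4.59 in MEF-2 clones. The order of the hexokinases in MEF-1 depended on the length used. There the median of Hk1 minus Hk2 was -0.22 with merged exons and 0.66 with the longest transcript. In the MEF-2 clones it was -1.38 and -0.49. For Pfkl minus Pfkm the median was -1.03 and -0.41 in MEF-1 and 0.09 and 0.71 in MEF-2 clones. Its sign thus differed between the sets and not between the lengths. The mean difference over all 16 lines, parental lines included, was -0.72 for Hk1 minus Hk2 with merged exons and 0.16 with the longest transcript. For Pfkl minus Pfkm it was -0.36 and 0.27.

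**Figure D3:**
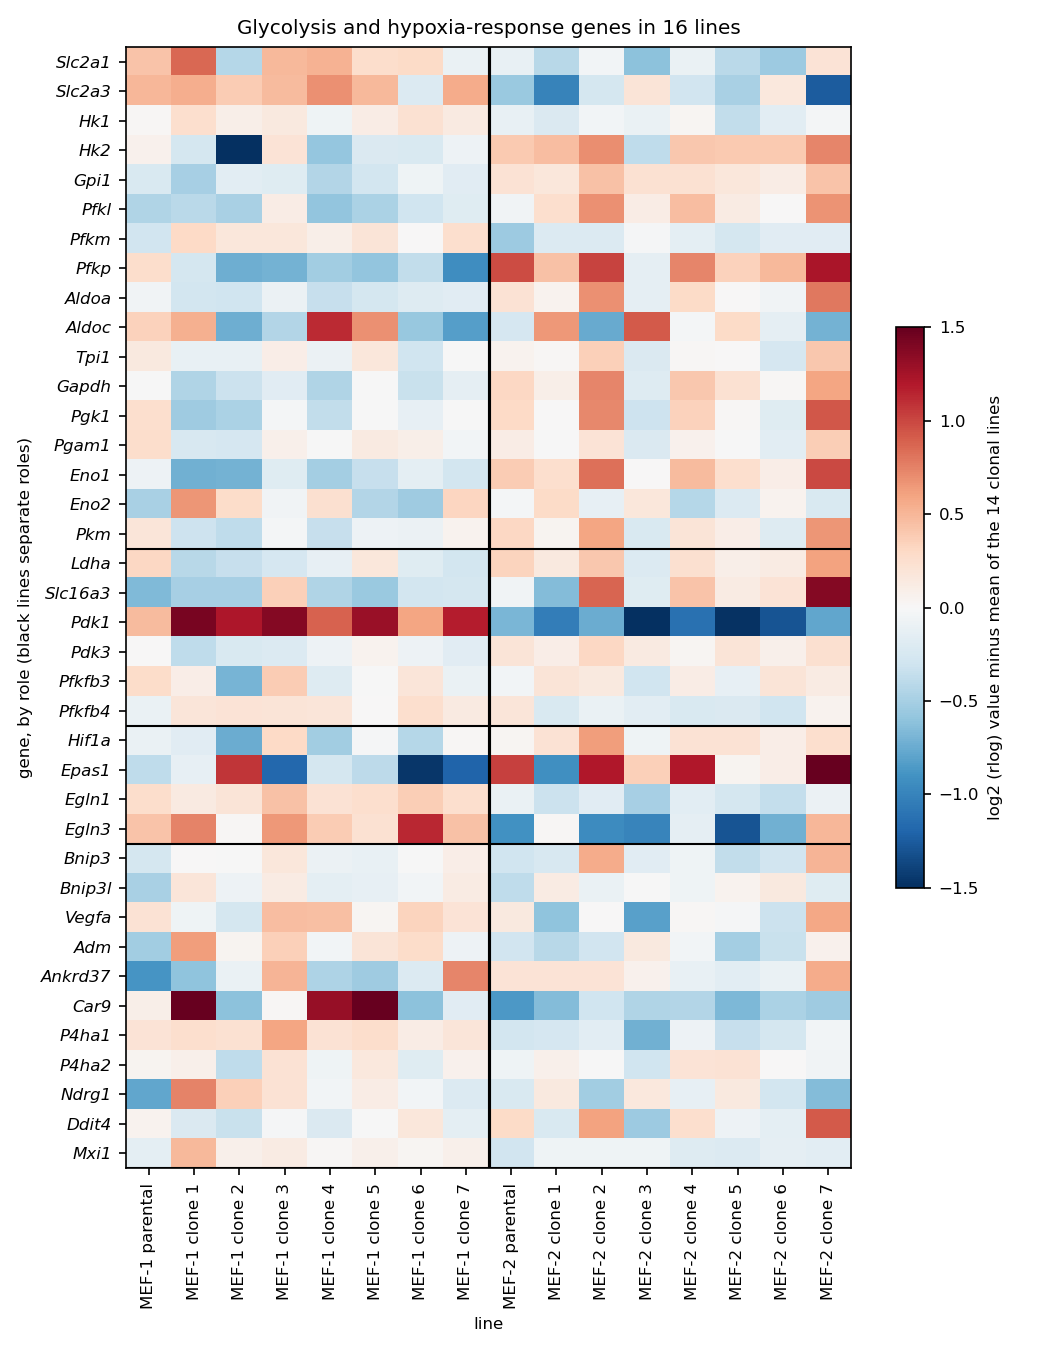
rlog value of each of the 38 genes (rows, by role) in each of the 16 lines (columns), minus the mean of the 14 clonal lines; values beyond the ends of the colour scale are drawn at its ends. Pdk1 is red in the MEF-1 lines and blue in the MEF-2 lines, and MEF-2 clones 2 and 7 are red across most enzymes from Hk2 to Ldha.

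Within MEF-2 most of the abundant glycolytic enzymes were highest in clones 2 and 7 and lowest in clone 3. MEF-2 clone 7 was the highest of its set for 9 of the 17 transport and glycolysis genes and for 19 of the 38 members, against 24.6% of all genes and 28.3% of those with an average of 10 or more. Clone 3 was the lowest for 9 of 17 and for 18 of 38 (47.4%), against 23.0% of all genes and 30.3% of those with an average of 10 or more. The median deviation of the 17 genes from the mean of the 7 clones was 0.34 in clone 7, 0.31 in clone 2, -0.19 in clone 6 and -0.27 in clone 3. For Eno1 the clones were at 16.35, 16.92, 16.1, 16.57, 16.35, 16.19 and 17.08 (clones 1 to 7), and for Aldoa at 14.97, 15.6, 14.78, 15.21, 14.92, 14.87 and 15.71. Clones 2 and 7 were highest for both, and clone 3 lowest. Slc2a3, Pfkm and Aldoc went against this order and were highest in clone 3, Aldoc at 5.57 there, 3.9 in clone 2 and 3.94 in clone 7, and Eno2 was also higher in clone 3 (9.69) than in clone 7 (9.29). Outside the list, 4 of the 8 integrated stress response genes, Asns, Trib3, Psat1 and Phgdh, had the same lowest and highest clones. They serve amino acid synthesis and stress signalling, and Asns was at 13.26 in clone 3 and 14.49 in clone 7. Genes of the other lists had these lowest and highest clones as well, among them Ero1a, Ak4, Bhlhe40, Gys1, Tfrc, Anxa2 and Tkt. The share of all genes with both was not counted. The part of these genes in the pattern was not tested.

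MEF-1 clones did not show this order. Their median deviations for the same genes ran from -0.14 (clone 2) to 0.11 (clone 3), and for the 11 targets from -0.11 to 0.16. MEF-1 clone 3 was the highest of its set for 11 of 38 members and the lowest for none, against 7.62% and 6.78% of all genes. The median pairwise correlation of the 17 genes was 0.58 over the 7 MEF-2 clones and 0.11 over the 7 MEF-1 clones. Over all 14, as deviations from the set mean, it was 0.4. That of the 11 targets was 0.08, 0.28 and 0.07. Over pairs of all genes with an average of 10 or more it was 0.04, 0.03 and 0.03. Of the 136 pairs of the 17 genes, 87 were above 0 in MEF-2 and 84 in MEF-1. Of the 37389628 pairs of all genes of that level, 19453992 and 19545126 were above 0. These correlations rest on 7 or 14 lines, share the lines' libraries, and are given without a test.

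**Figure D4:**
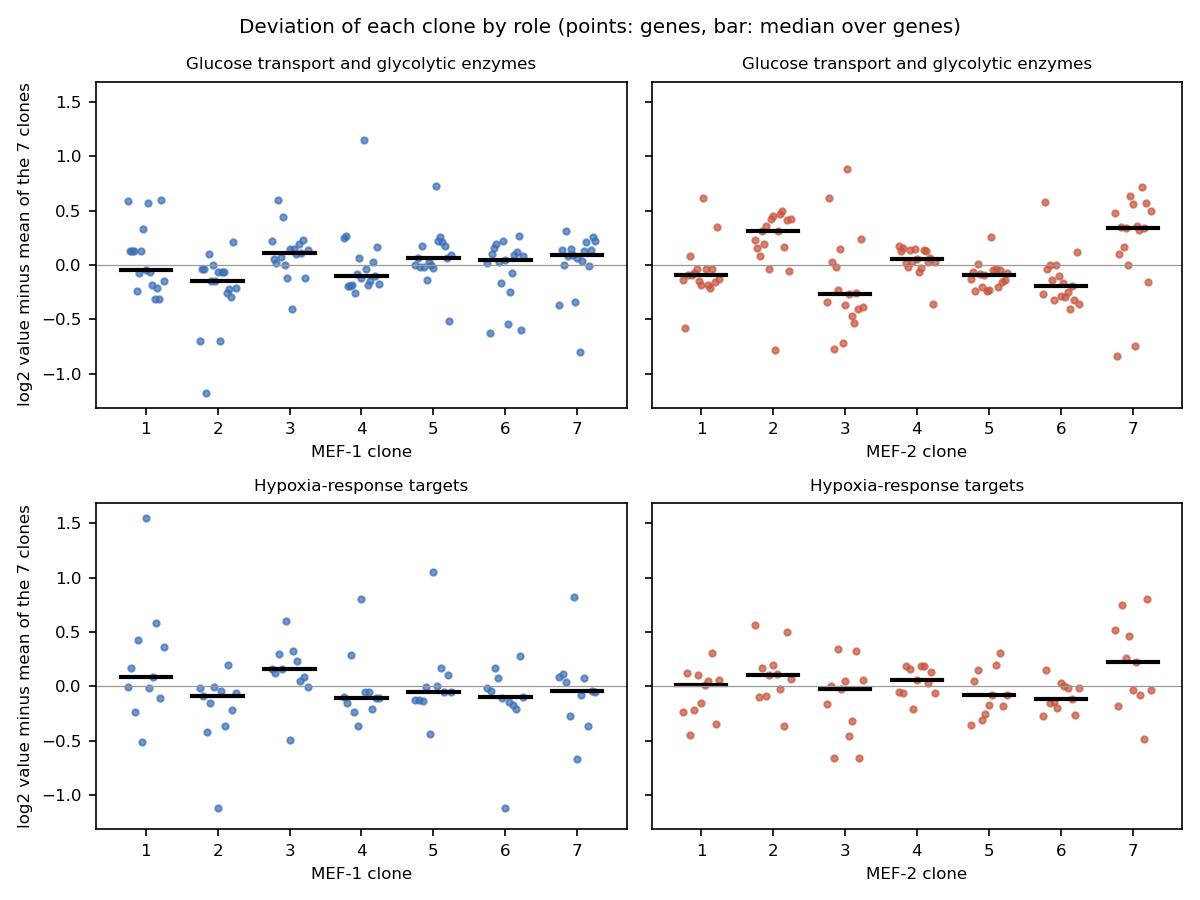
Deviation (log2) of each clone from the mean of its 7 clones, for the 17 transport and glycolysis genes (top) and the 11 hypoxia-response targets (bottom), in MEF-1 (left) and MEF-2 (right); points are genes and bars are medians over genes. In MEF-2 the medians of the top panel reach 0.34 in clone 7 and -0.27 in clone 3.

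The spread among clones of 1 embryo was also described gene by gene. The median SD over the 7 clones was 0.23 in MEF-1 and 0.266 in MEF-2, against 0.199 and 0.164 over all genes. For members with an average of 10 or more it was 0.172 and 0.266, against 0.15 and 0.12 over all genes of that level. A range of 1 unit or more was found for 10 of 38 members in each set (26.3%), against 24.2% and 18.1% of all genes. Car9 spread most in MEF-1 (SD 1.11) and Epas1 most in MEF-2 (SD 0.87).

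Each parental line was 1 library, so its position among its clones is given without a test. The MEF-1 parental line was above all 7 of its clones for 7 members (Pfkp, Aldoa, Pgk1, Pgam1, Eno1, Pkm and Ldha; 18.4%, against 20.2% of all genes) and below all of them for 10 (26.3%, against 20.8%). Those 7 were enzymes of glycolysis and lactate. The 10 held 6 of the 11 hypoxia-response targets, and also Pfkm, Slc16a3, Pdk1 and Pfkfb4 of the glycolysis and lactate roles. Ldha was at 15.09 in the parental line and at 14.95 in its highest clone, and Ndrg1 at 12.7 and at 13.27 in its lowest clone. The MEF-2 parental line was above all 7 of its clones for Pdk1 and Pfkfb4 (5.26%, against 15.8%) and below for 5 members (13.2%, against 18.5%). Pdk1 was at 10.94 in the MEF-1 parental line, below each of its clones, and at 9.78 in the MEF-2 parental line, above each of its clones.

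Other genes of the pathway were counted from lists chosen by annotation, beside 56.1% of all genes called, 27.5% higher and 28.6% lower. The shares called were 60.0% of other HIF components, 15 of 30 other hypoxia-response genes, 66.7% of other glycolysis and lactate genes, 57.1% of pentose phosphate genes and 12.5% of integrated stress response genes, so that most were near the share of all genes. Of 10 other HIF components 4 were higher and 2 lower. Arnt2, a partner subunit of the HIF family, was higher by 0.6, whereas its paralogue Arnt was lower by -0.19 (adjusted p = 0.001), without overlap. After chromosome centring Arnt was at -0.17. Hif1an, the asparaginyl hydroxylase that blocks HIF activity, was lower by -0.5. Hif1an is on chromosome 19, and its call was lost after chromosome centring (-0.14, adjusted p = 0.0507). Of 30 other hypoxia-response genes 8 were higher, led by Pgf (2.53), a growth factor related to Vegfa, Loxl2 (2.12) and Lox (1.37), collagen cross-linking enzymes, and 7 were lower, led by Stc1 (-2.62). Pgf is on chromosome 12 and Lox on chromosome 18, and the paper proposes that some or all MEF-1 lines had lost a copy of these. After chromosome centring Pgf was at 1.94 and Lox at 1.08, and both kept their calls. Of 35 other glycolysis and lactate genes 30 passed the filter, 10 of them higher, led by the insulin-responsive transporter Slc2a4 (2.54), and 10 lower, among them the lactate transporter Slc16a1 (-1.51) and Slc2a12 (-2.44). In the pentose phosphate pathway 3 of 7 were higher, with Taldo1 at 1.15, and 1 was lower, Rpia at -0.54. Of 8 integrated stress response genes 1 was called, Ddit3, lower by -0.54.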

How the data were processed

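Total RNA was depleted of ribosomal RNA and sequenced as directional libraries from 16 lines. The deposited values are log2 (rlog) values: per the labels and the study's methods, the authors trimmed reads with Trim Galore 0.6.0, quantified them with Salmon 1.5.2 on mm10 and transformed them with DESeq2 1.24.0. The table holds no counts, so depth is unknown here, no counting interval is given, and no count test was run, although one had been planned in case it held counts.

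Symbols came from GENCODE M21 (54200 of 54453 genes matched), an older annotation than the authors'. Aldoa is carried by 2 gene IDs, and the one with the higher average was used. Protein-coding genes with an average above 0 (15285) were tested with limma 3.58.1 (trended prior, R 4.3.3), the 7 MEF-2 against the 7 MEF-1 clonal lines, with Benjamini-Hochberg adjustment and a threshold of 0.05. On data simulated with independent noise for each gene, 175 of 200 genes changed by 1 unit were recovered and 14 unchanged genes were called. Only those 200 of the 15285 genes were changed, whereas 56.1% were called in the real data. The simulation therefore does not give the error rate on these data. The members and lists were chosen with earlier results of these data known. All members are accounted for, with full values for those called at a difference of 0.5 or more, those ranging over 1 unit or more in a set, the HIF genes and paralogue pairs, and up to 3 called genes per direction of other lists. Clone numbers do not pair lines across sets: same-numbered correlations ran from -0.133 to 0.2, with 2 of 7 over 0.1. Alternatives covered scaling, chromosome centring, filters, prior, parental lines, block and left-out lines. Removing MEF-2 clones 2 and 7, and MEF-2 clones 3 and 7, was chosen after seeing the data.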

Additional observations from a re-analysis of the deposited data

Results flagged for a closer look

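A single clone lay far from the other 6 of its set for 5 of the 76 sets of 7 values examined, where chance at 1 in 20 gives 3.8. Slc2a3 was at 7.1 in MEF-1 clone 6 (nearest clone 7.68), Hk2 at 12.36 in MEF-2 clone 3 (nearest 13.13), Slc16a3 at 9.82 in MEF-1 clone 3 (nearest 9.19), P4ha1 at 15.02 in MEF-1 clone 3 (nearest 14.7) and Mxi1 at 11.98 in MEF-1 clone 1 (nearest 11.61). Clones and parental line differed in opposite directions in the sets for 2 genes. For Pdk1 the clones were on average 0.66 above the MEF-1 parental line and -0.45 from the MEF-2 parental line, and for Pfkfb4 0.26 and -0.35, with every clone of a set on the same side. These differences between sets were not tested.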

How the results depend on the processing

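Over 27 alternatives the number of members called ran from 21 to 24, and 16 of the 22 called members kept direction and call in all of them. The others were Car9, Hif1a, Hk2, Adm, Egln3 and Mxi1. Adm was -0.31 (adjusted p = 0.0667) with the parental lines added, and Car9 lost its call in 13 alternatives. The removals of pairs of lines were chosen after seeing the data. Without MEF-2 clones 2 and 7, the highest lines for most enzymes, Hk2 (0.64, adjusted p = 0.0524), Hif1a (0.36, adjusted p = 0.067) and Car9 lost their calls, Bnip3 (-0.23) and Vegfa (-0.51) gained one, and Tpi1 (-0.04), Pgam1 (-0.03), Bnip3l (0.04) and Ddit4 (-0.04) changed sign. Without MEF-2 clones 3 and 7, which stood apart over all genes, Car9 lost its call, Pgk1 gained one (0.4, adjusted p = 0.0423), Bnip3l was 0.02, and 2 integrated stress response genes were called. Quantile normalisation gave Ankrd37 (0.64) and Epas1 (1.1) a call and took those of Egln3 and Car9. Chromosome centring gave Pkm (0.39) and Pgam1 (0.43) a call, turned Hif1a (-0.14), Mxi1 (0.1) and Bnip3l (0.03) and gave 2 called integrated stress response genes. With the parental lines added Aldoc was -0.02 and Bnip3l 0.0. Leaving out 1 line turned uncalled members only: Aldoc (-0.08 to 0.26), Bnip3 (-0.11 to 0.04), Bnip3l (-0.04 to 0.02), Pfkfb3 (-0.01 to 0.17) and P4ha2 (-0.02 to 0.09), and gave 1 to 3 called integrated stress response genes. Per length of the longest transcript the mean over all lines was 0.16 for Hk1 minus Hk2, 0.27 for Pfkl minus Pfkm and 0.29 for P4ha1 minus P4ha2. With the clone number as a replicate block 22 members were called, Hif1a (adjusted p = 0.0507) and Car9 (adjusted p = 0.0513) lost their calls and Epas1 (adjusted p = 0.0449) and Ndrg1 (adjusted p = 0.0319) gained one. The causes were not tested. A count test was not run, since the table holds no counts.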
